A study of Mus musculus with 2 samples.

Results

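The amino acid, glucose and monocarboxylate transporters of 5 solute carrier families were followed between 2 sorted lines of a mouse lung squamous cell carcinoma (SCC). The genes were taken by symbol, as every gene named Slc1a, Slc2a, Slc7a, Slc16a or Slc38a with a number that had at least 1 probe set naming it alone. That rule gave 56 genes read by 120 probe sets, of 20679 genes and 45101 probe sets in all. RefSeq lists 59 genes of these families, and the 3 without a probe set (Slc2a7, Slc38a8 and Slc38a11) were not analysed here. The families are SLC1 with 7 genes, SLC7 with 15, SLC38 with 9, SLC2 with 11 and SLC16 with 14.

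Total RNA came from cultured KALLU+ (Sca1 hi CD24-) and KALLU- (Sca1 lo CD24+) cells, which had been sorted by antibodies to both surface markers from the KALLU line of KA/KA lung SCC. KA/KA mice carry a kinase-dead Ikkα knock-in, so both lines share that genotype, and each is 1 sorted line that stands for no other tumor. Both were grown in DMEM with FBS and antibiotics, with no treatment, and each gave 1 sample for biotin labelling and Affymetrix mouse genome arrays, whose probe sets (groups of short probes) each measure 1 transcript region. The sample titled S1 is described as high in Sca1 and more tumorigenic and was read as KALLU+, and S2 as KALLU-.

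Before any result, the sorting markers were read. Cd24a, whose product is the CD24 antigen, was lower in S1 with log2 values of -5.96 to -5.31 over 3 probe sets, as the sort would have it. Ly6a, which encodes Sca1, had a log2 value of -2.57 at its 1 probe set, against the label. The lines are therefore called the line labelled KALLU+ and the line labelled KALLU-, and every direction below rests on that reading of the titles.

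The deposited table gives 1 value per probe set, a fold change of S1 over S2 that carries a minus sign where S1 is lower. It was put on the log2 scale, and genes with several probe sets take their median. With 1 sample per line and no signals, detection calls or p-values in the table, no test, SD or interval could be made, and the level of a gene in either line is unknown. For scale, 76 probe sets of olfactory and vomeronasal receptors, taken as silent in both lines, lay between -0.55 and 0.38 on the log2 scale. The bacterial poly-A controls (24 probe sets), RNA added to each sample, had a log2 median of -0.45, and centring on them adds 0.45 to every value and moves the log2 median of all genes from -0.04 to 0.40. Probe sets of 1 gene are read from the same RNA and are not replicates. In bulk RNA of this kind, fewer cells that express a gene and less RNA per cell cannot be told apart.

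Cells cannot make every amino acid they need, and charged or polar nutrients do not cross the membrane unaided. SLC1, SLC7 and SLC38 proteins carry amino acids, some driven by the sodium gradient and some by exchange of one amino acid for another. SLC2 proteins are the facilitative glucose transporters (GLUT), and SLC16 proteins, the monocarboxylate transporters (MCT), move lactate, pyruvate, ketone bodies and, in some members, aromatic amino acids. Proliferating squamous cells are known for a high demand for glucose, glutamine and cystine and for releasing lactate.

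The transporter genes that differed past 2-fold were all lower in the line labelled KALLU+, save that Slc7a3 was past 2-fold higher, and 7 genes lower, after centring on the poly-A controls (9.92% and 2.82% of all genes). By the gene median, 9 of the 56 genes (16.1%) were at least 2-fold lower, against 5.08% of all genes. None of the 56 was at least 2-fold higher, against 4.69% of all genes. Among the 9 were Slc1a3, Slc1a5 and Slc1a6, Slc7a8, Slc38a4, and Slc2a3, Slc2a6 and Slc2a10.

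At a looser threshold of 1.5-fold, 12 transporter genes were lower, against 11.4% of all genes, and 1 was higher (Slc7a3), against 9.27%. Counted by probe set, 18 of 120 were at least 2-fold lower, where the share over the array was 4.72%, and 0 were at least 2-fold higher, where that share was 6.73%. The highest transporter probe set was 1.94-fold higher, at Slc38a9. Over all 56 genes the log2 median was -0.15, with 40 genes (71.4%) below 0 and the highest at 0.66. Of all genes 56.2% lay below 0 and of 258 other Slc genes 65.5%, with log2 medians of -0.04 and -0.11. The median of the transporter genes was 0.30 after centring on the poly-A controls, since that centring raises every gene alike.

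Of the 56 medians, 37 (66.1%) lay inside the receptor range, 14 (25%) below it and 5 (8.93%) above it. Over all genes these shares were 73.8%, 12.3% and 13.9%, so lying mostly inside is the pattern of the whole array. Around 2-fold, the least changed of the 9 genes was Slc1a5 at 2.40-fold lower. The next gene outside was Slc38a2 at 1.72-fold lower. Of the other 258 Slc genes, 13 (5.04%) were at least 2-fold lower and 8 higher, a difference from the 5 families that could not be tested with 1 sample per line.

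**Figure D1:**
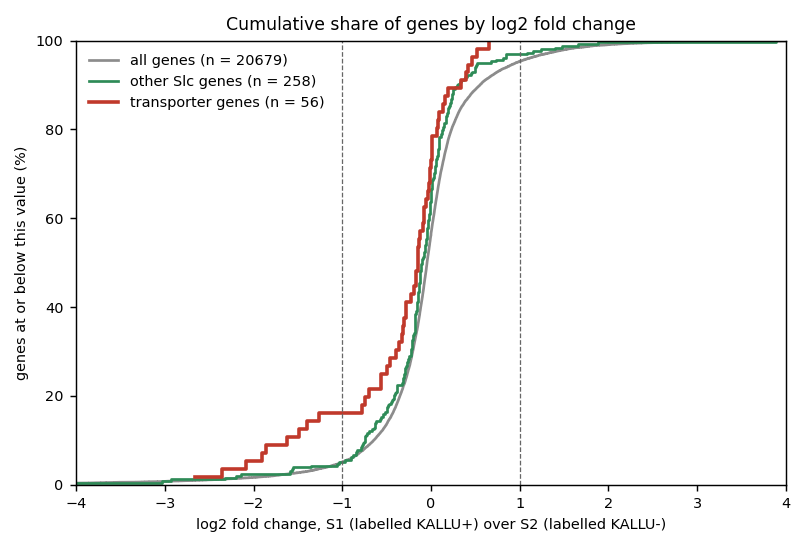
Cumulative share of genes (vertical axis, percent) at or below each log2 fold change of the line labelled KALLU+ over the line labelled KALLU- (horizontal axis), for the 56 transporter genes, 258 other Slc genes and all 20679 genes. The axis leaves out the most extreme genes, and dashed lines mark 2-fold. The transporter curve stands at 16.1% at 2-fold lower, where all genes stand at 5.08%, and reaches its end at 0.66.

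**Figure D2:**
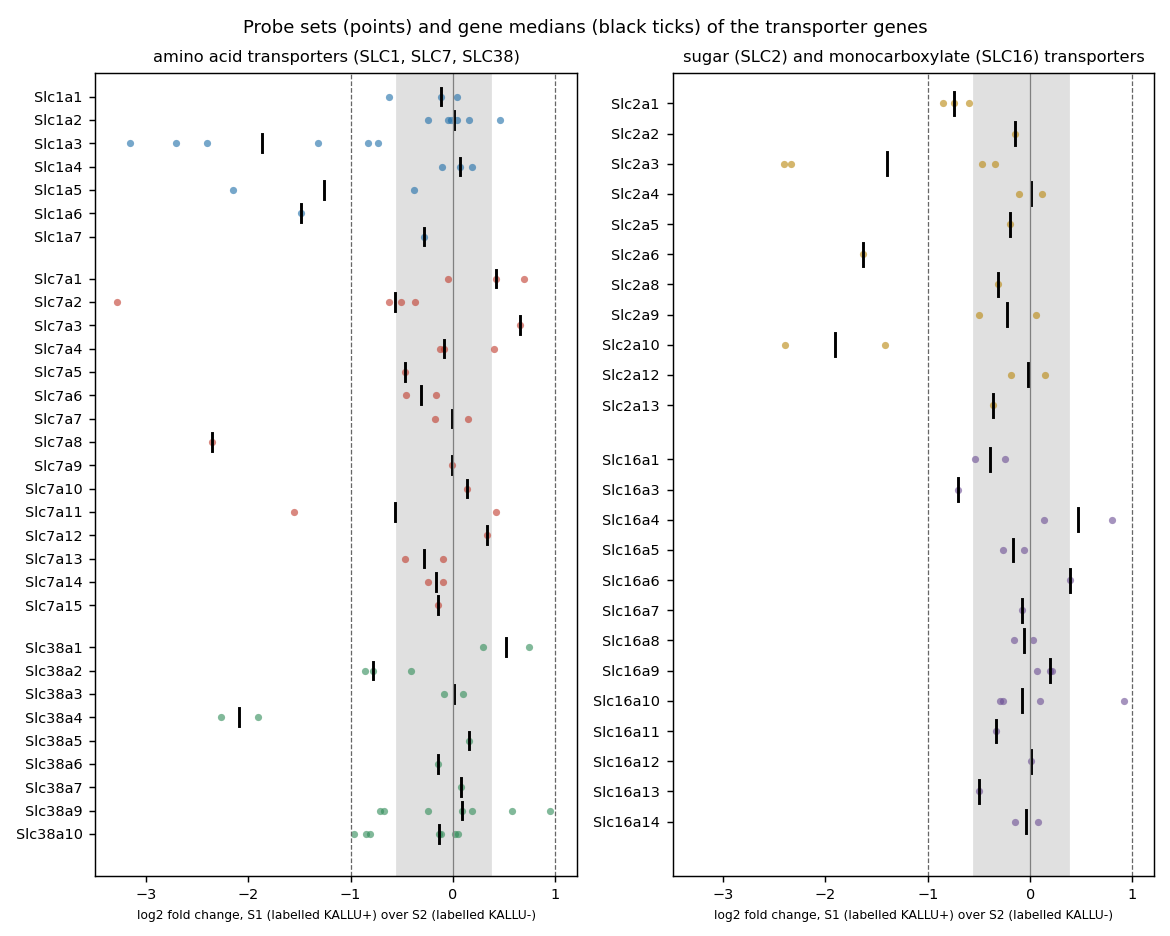
Log2 fold change of each probe set (points) and the median per gene (black ticks) for 55 of the 56 transporter genes, as the line labelled KALLU+ over the line labelled KALLU-. The grey band is the range of 76 receptor probe sets (-0.55 to 0.38) and dashed lines mark 2-fold; 8 gene medians lie past the line on the left and 0 past the line on the right.

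Among the acidic amino acid transporters of SLC1, which take up glutamate and aspartate with sodium, Slc1a3 and Slc1a6 were the lower members. Slc1a3 (GLAST) is best known for glutamate uptake by astrocytes. Its 6 probe sets had signed fold changes of -8.93, -6.51, -5.29, -2.50, -1.78 and -1.66, so that all were lower but only 4 were past 2-fold. Their log2 median was -1.86, or 3.63-fold lower, and without the 1 probe set whose suffix marks possible cross-hybridisation it was -2.40. Slc1a6, known from cerebellar Purkinje cells, was 2.81-fold lower at its 1 probe set (log2 -1.49).

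The other acidic transporters stayed near 0. Slc1a1, Slc1a2 and Slc1a7 had log2 medians of -0.12, 0.01 and -0.28, inside the receptor range. The pair of neutral amino acid exchangers of SLC1 differed from each other. Slc1a5, the glutamine transporter ASCT2, had signed fold changes of -4.44 and -1.30 at its pair of probe sets, a log2 median of -1.26 that rests on the first. Slc1a4, which exchanges alanine, serine and cysteine, had a log2 median of 0.07, with 3 probe sets between -1.07 and 1.14-fold. The SLC1 family as a whole had a log2 median of -0.28, with 3 of 7 genes at least 2-fold lower, and 0.16 once centred on the poly-A controls.

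In SLC7, the light chains pair with a glycoprotein heavy chain at the membrane, and the cationic amino acid transporters work alone. Slc7a8, the light chain LAT2, which exchanges large and small neutral amino acids, was 5.10-fold lower at its 1 probe set (log2 -2.35), at place 249 from the lowest of all genes. Its close relative Slc7a5 (LAT1), the carrier of leucine and other essential amino acids, had a log2 value of -0.46 at 1 probe set. This is inside the receptor range.

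Slc7a11, the cystine and glutamate exchanger xCT, had signed fold changes of -2.94 and 1.34, one probe set on each side of 0, so that its log2 median of -0.57 describes neither. The remaining light chains and relatives were close to 0. Slc7a6, a partner in the exchange of arginine for neutral amino acids, had a log2 median of -0.31 and turned to 0.14 under centring on the poly-A controls. Slc7a7, with the same kind of exchange, was at -0.01 and Slc7a10, an exchanger of small neutral amino acids, at 0.14.

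The heavy chains themselves were nearly level. Slc3a2 (4F2hc), the partner of Slc7a5, Slc7a8 and Slc7a11, had a log2 value of -0.26 at 1 probe set, and Slc3a1, the partner of Slc7a9, one of 0.20. Both lay inside the receptor range.

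The cationic transporters, which bring in arginine, lysine and ornithine, went different ways. Slc7a3 had the highest log2 value of the 56 genes, 0.66 or 1.58-fold higher, at its 1 probe set. Slc7a1, the most widely expressed of them, had a log2 median of 0.42 with signed fold changes of 1.62, 1.34 and -1.04. For Slc7a2, known from macrophages and liver, the 4 probe sets had signed fold changes of -9.71, -1.54, -1.43 and -1.29. All 4 lay below 0 and 1 alone was past 2-fold, so the log2 median was -0.57 and the mean -1.20. The log2 median of the 15 SLC7 genes was -0.15, and 0.30 when centred on the poly-A controls, with 1 gene at least 2-fold lower.

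The system A transporters of SLC38 import small neutral amino acids such as alanine and glutamine together with sodium. All 3 medians lay outside the receptor range, on different sides of 0, though that of Slc38a1 was inside it, at 0.29, without its probe set open to cross-hybridisation. Slc38a4, a gene imprinted in the mouse, was lower at both, the signed fold changes being -4.82 and -3.74, with a log2 median of -2.09 (4.25-fold lower). Slc38a2 (SNAT2), which is induced by amino acid shortage, was lower at each of its 3, by 1.82, 1.72 and 1.33-fold, short of 2-fold. Slc38a1 (SNAT1) was above 0 at both, with signed fold changes of 1.67 and 1.22 and a log2 median of 0.52.

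The system N genes Slc38a3 and Slc38a5, which carry glutamine and histidine, had log2 medians of 0.01 and 0.15, inside the receptor range. Slc38a9, a lysosomal carrier that senses arginine for mTORC1, had 7 probe sets spread from -1.64 to 1.94-fold, on both sides of 0, and a log2 median of 0.08. The 9 genes of the family had a log2 median of 0.01, and 0.45 centred on the poly-A controls, with 1 gene at least 2-fold lower.

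Of the SLC2 glucose transporters, 10 of 11 genes lay below 0 (56.2% of all genes) and 3 were at least 2-fold lower, although 6 of the 10 were small enough to change sign under centring on the poly-A controls. The family log2 median was -0.31, and 0.13 after that centring. Slc2a10 (GLUT10), which when mutated in humans causes arterial tortuosity, was lower at both, the signed fold changes being -5.26 and -2.68, with a log2 median of -1.91. The second of these carries a suffix for possible cross-hybridisation, and without it the log2 value was -2.39. Slc2a6 (GLUT6), found mainly on intracellular membranes, was 3.09-fold lower at its 1 probe set (log2 -1.63).

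The high-affinity transporter Slc2a3 (GLUT3) was split by probe set. Its signed fold changes were -5.30 and -5.04 at the pair of probe sets marked for possible cross-hybridisation and -1.38 and -1.27 at the others. The log2 median of -1.40 became -0.40 without the marked pair, under 2-fold and inside the receptor range, so the call for Slc2a3 rests on them. Slc2a1 (GLUT1), the main carrier of basal glucose uptake, was lower at all 3 probe sets by 1.81, 1.68 and 1.51-fold, a log2 median of -0.75 that is short of 2-fold. The insulin-responsive Slc2a4 (GLUT4) had a log2 median of 0.00396, the highest of the family.

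In SLC16, Slc16a10, a carrier of aromatic amino acids, had signed fold changes of 1.88, 1.07, -1.20 and -1.22 over 4 probe sets and a log2 median of -0.08. One of these probe sets stood apart from the other 3.

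The proton-linked members, which move lactate and pyruvate, all lay below 0 and none reached 2-fold, and 3 of the 4 lay above 0 once centred on the poly-A controls, which turned their log2 median from -0.24 to 0.21. Slc16a3 (MCT4), the lactate exporter of glycolytic cells, was 1.62-fold lower at its 1 probe set (log2 -0.70). Slc16a1 (MCT1) had signed fold changes of -1.45 and -1.19, a log2 median of -0.39 that turned to 0.06 when centred on the poly-A controls. Slc16a7 (MCT2) was at -0.08. The highest of the family was the orphan Slc16a4 at a log2 median of 0.47, from signed fold changes of 1.74 and 1.10. The log2 median of the 14 SLC16 genes was -0.08, and 0.36 centred on the poly-A controls.

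The 26 genes outside the rule for named genes had log2 medians from -0.50 to 0.39, and 25 of them lay inside the receptor range. The exception was Slc16a6, a carrier linked to ketone body export, at a log2 value of 0.39 and picked out after its value was seen. Slc38a10, likewise picked out afterwards, was inside the range at -0.13. Without its probe sets open to cross-hybridisation it was outside, at -0.81. Probe sets of 1 gene often differed. Of 33 transporter genes with 2 or more probe sets, 16 had them on both sides of 0, 14 had all below 0 and 3 had all above 0. Of the 9 genes at least 2-fold lower by the median, 6 had every probe set past 2-fold, and of these 3 have 1 probe set.

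**Figure D3:**
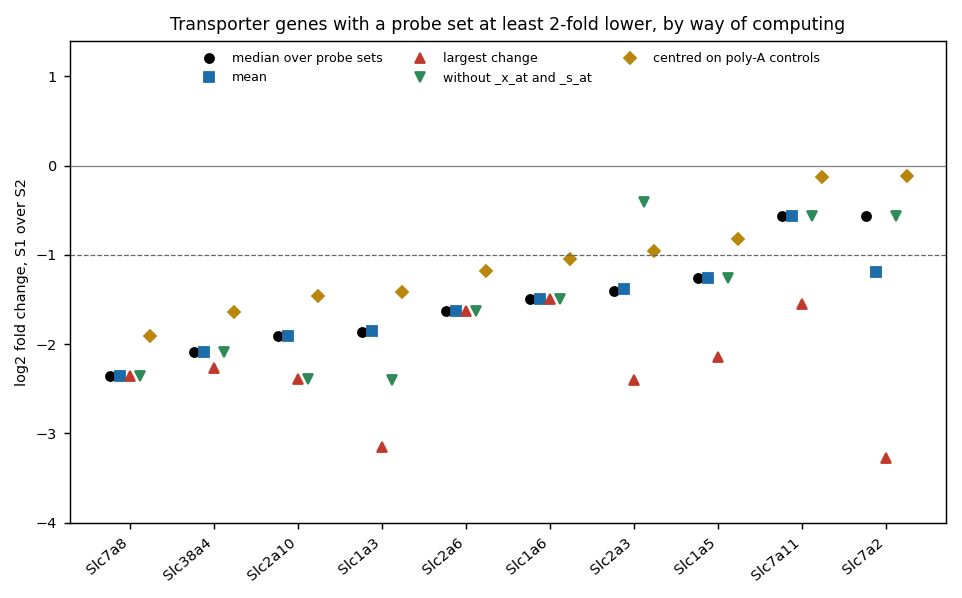
Log2 fold change (vertical axis) of 10 transporter genes with a probe set at least 2-fold lower, as the median over probe sets and under 4 other ways of computing the gene value; the dashed line marks 2-fold. The 6 genes from Slc7a8 to Slc1a6 stay past 2-fold in all 5 ways, Slc2a3 reaches -0.40 without the _x_at and _s_at probe sets, and Slc7a2 ranges from -3.28 to -0.12.

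To show the sequence beside these differences, the windows around the start sites of the lower genes were read from RefSeq on GRCm38.p6, from 250 bases before to 50 bases after the start. The table held windows for 40 of the 56 genes (50 windows in all) and for 6 of the 9 lower genes, among which Slc38a4 has 3 windows. Printed here are 3, for the lower genes of an amino acid exchanger, a glucose transporter and a glutamate transporter, at chr14:54781837-54782136 on the minus strand, chr2:165503647-165503946 on the plus strand and chr15:8710758-8711057 on the minus strand. They run 5′ to 3′ along the gene. Capitals mark letters that match, on either strand, the GC box GGGCGG, the hypoxia response core ACGTG, the TATA core TATAAA, the amino acid response core TGATGNAA (bound by ATF4 with C/EBP proteins), the AP-1 letters TGANTCA or the antioxidant response core TGACNNNGC.
Slc7a8: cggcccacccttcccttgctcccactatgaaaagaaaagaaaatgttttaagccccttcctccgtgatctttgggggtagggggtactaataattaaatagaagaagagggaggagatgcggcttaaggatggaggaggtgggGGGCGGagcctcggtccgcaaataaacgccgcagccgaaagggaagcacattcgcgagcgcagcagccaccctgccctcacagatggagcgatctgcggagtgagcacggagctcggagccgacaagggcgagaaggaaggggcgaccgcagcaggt
Slc2a10: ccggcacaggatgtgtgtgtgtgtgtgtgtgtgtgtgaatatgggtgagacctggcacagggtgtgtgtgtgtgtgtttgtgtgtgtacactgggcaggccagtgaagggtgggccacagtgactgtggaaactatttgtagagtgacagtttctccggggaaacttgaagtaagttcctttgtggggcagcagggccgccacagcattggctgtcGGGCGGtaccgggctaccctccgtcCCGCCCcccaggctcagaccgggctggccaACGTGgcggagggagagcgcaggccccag
Slc1a3: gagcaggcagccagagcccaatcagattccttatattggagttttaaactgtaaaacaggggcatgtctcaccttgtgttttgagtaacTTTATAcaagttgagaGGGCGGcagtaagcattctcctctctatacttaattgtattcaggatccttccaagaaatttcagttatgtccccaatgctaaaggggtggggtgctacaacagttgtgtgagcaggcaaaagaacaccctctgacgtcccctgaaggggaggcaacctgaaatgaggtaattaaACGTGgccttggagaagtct

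The 3 windows differ in base composition. The Slc7a8 window holds 20 CpG and is 58% GC, that of Slc2a10 holds 12 CpG at 60.7% GC, and that of Slc1a3 holds 3 CpG at 45.3% GC. The median is 7 CpG over all 32851 windows and 13 over the 50 transporter windows. Slc7a8 has 1 GC box match, Slc2a10 has 2 and Slc1a3 has 1. Slc1a3 also has a TATA core match on the opposite strand, nearer the upstream end of its window than the start site. The hypoxia response core occurs once each in Slc2a10 and Slc1a3.

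The GC box was in 7 of the 8 windows of lower genes, in 30 of the 50 transporter windows and in 35.7% of all windows. The hypoxia response core was in 3 of the 8, in 17 of the 50 and in 19.6% of all windows, and the TATA core was in 2 of the 8, in 6 of the 50 and in 13.6%. The amino acid response core was in 0 of the 8 windows, in 4 of the 50 and in 3.97% of all windows. For the AP-1 letters these were 0, 4 and 7.81%, and for the antioxidant letters 0, 6 and 12.4%. Some of these motifs can share letters, since TGACNNNGC can overlap ACGTG or TGANTCA, and ACGTG inside CACGTG is counted on each strand. A match is a run of letters, no binding was measured, and the absence of a match holds for these windows alone.

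Genes that work with the transporters were then read from lists by role, beside the same backgrounds of 5.08% lower and 4.69% higher. After centring on the poly-A controls these shares over all genes are 2.82% and 9.92%. Of the heavy chains and accessory subunits, 1 of 4 was at least 2-fold lower. It was Emb (embigin), which escorts monocarboxylate transporters to the membrane, at 40.7-fold lower with log2 values of -5.41 and -5.28 at its pair of probe sets. Bsg (basigin), the usual escort of Slc16a1 and Slc16a3, had a log2 value of 0.10 at its 1 probe set, inside the receptor range.

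Of the regulators of glucose transporters, 2 of 4 measured were lower. Arrdc4 and Txnip, arrestin-like proteins that reduce glucose uptake and whose transcription follows glucose, had log2 medians of -4.35 (20.4-fold lower) and -2.43 (5.40-fold lower), each lower at both probe sets. Hif1a, the oxygen-regulated subunit of the hypoxia factor, had a log2 median of 0.79. Among hexokinases and lactate dehydrogenases 1 of 7 was lower, Ldhb, whose subunit favours the use of lactate, at a log2 median of -1.33 over 4 probe sets from -1.39 to -1.27.

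Among glutamine and glutamate enzymes 2 of 10 were lower and 0 higher. Glul, which makes glutamine from glutamate, had a log2 median of -2.09 and Asns, which makes asparagine, one of -1.51, each with both probe sets past 2-fold.

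Of the arginine, ornithine and polyamine enzymes 2 of 9 measured were lower. They were Arg2, a mitochondrial arginase, at a log2 median of -1.40, and Ass1, which makes argininosuccinate, at -1.31 from probe sets at -2.54 and -0.07. Of the branched-chain and tryptophan enzymes 1 of 6 was lower, Bcat1, a cytosolic aminotransferase, at -1.04 over 3 probe sets from -1.09 to -0.04. Of the glutathione enzymes 0 of 8 were lower and 1 was higher, Chac1, which degrades glutathione, at 1.01 with 1 probe set. After centring on the poly-A controls, Arg2, Ass1, Bcat1 and Ldhb were no longer 2-fold lower. Hif1a and Odc1, the first enzyme of polyamine synthesis, were then past 2-fold higher, as was 1 of the 10 glutamine and glutamate enzymes.

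The response to amino acid shortage, in which ATF4 induces transporters and synthesis enzymes, was read from a list of 20 genes, of which 19 were measured. Of these, 6 were at least 2-fold lower and 1 higher, with a log2 median of -0.56. The lower genes were the transcription factors Cebpb (-1.76) and Atf5 (-1.28), the mTORC1 inhibitor Ddit4 (-1.56), Asns, the pseudokinase Trib3 (-1.33) and the stress protein Nupr1 (-1.16). The higher gene was Chac1, which is on the glutathione list as well, and Atf4 itself had a log2 median of -0.56. On the poly-A controls the list median was -0.12 and 3 genes were at least 2-fold lower, against 2.82% of all genes. Atf5, Trib3 and Nupr1 were then short of 2-fold.

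Of the genes for amino acid sensing at the lysosome, 2 of 18 measured were at least 2-fold lower and 0 higher, with a log2 median of -0.22 that turned to 0.23 under centring on the poly-A controls. The lower genes were Sesn3, of the sestrin family, at -1.76 and Castor1, an arginine sensor, at -1.24, the latter short of 2-fold after that centring, when Rraga, a small GTPase of the pathway, was past 2-fold higher. Of 20 further carriers from other families, most of them for amino acids or sugars and some for pyruvate, monocarboxylates or nucleobases, 3 were lower and 0 higher, and the log2 median was -0.31, or 0.14 on the poly-A controls. These were Slc43a3, which carries purine nucleobases, 42.6-fold lower, the mitochondrial aspartate and glutamate carrier Slc25a13 at -3.03 and the neutral amino acid transporter Slc6a15 at -1.35, each with 1 probe set, and the last of them was short of 2-fold on the poly-A controls.

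**Figure D4:**
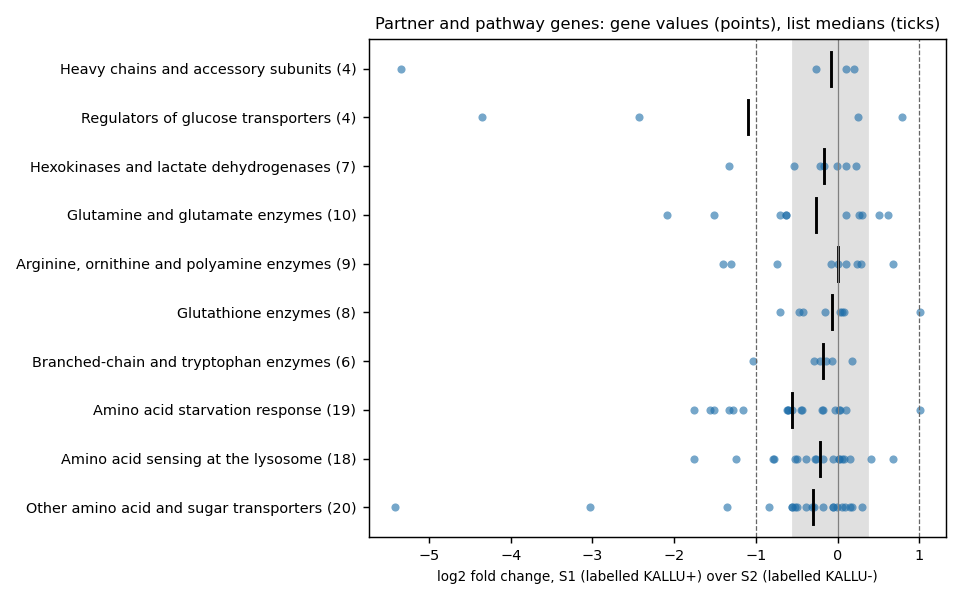
Log2 fold change of the measured genes (points) of 10 lists of partner and pathway genes, with the list median as a black tick and the number of genes in brackets; the grey band is the range of 76 receptor probe sets and dashed lines mark 2-fold. The points farthest to the left are Slc43a3 at -5.41, Emb at -5.35 and Arrdc4 at -4.35, and 1 gene, Chac1, is past 2-fold to the right.

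Markers of cell types were read beside the transporters, as differences between the lines, since levels are unknown and presence could not be checked. Of 9 measured squamous and epithelial genes 0 were past 2-fold, with a log2 median of -0.07 and a range of -0.76 to 0.36. Of 8 mesenchymal and fibroblast genes 1 was at least 2-fold lower, Pdgfrb at -1.16, with a log2 median of -0.29 and a range of -1.16 to 0.80. After centring on the poly-A controls 0 of them were at least 2-fold lower (2.82% of all genes) and 1, Cdh2, was higher (9.92%). Their list median was then 0.16. The 3 genes of simple epithelium had a log2 median of 0.27, the 3 of lung -0.17, the 3 of immune cells -0.05 and the 2 of endothelium 0.14, with 0 past 2-fold. The log2 fold change of the 3′ control probe set minus that of the 5′ one was -0.09 for Actb, -0.07 for Gapdh and -0.71 for Pcx. These values compare the 3′ to 5′ ratio between the lines and do not give the RNA integrity of either sample. The part of cell makeup and of RNA integrity in the transporter values was not tested.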

How the data were processed

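Total RNA from 1 sample per line was isolated with TRIzol, labelled with the Affymetrix IVT Express kit, hybridized to Affymetrix mouse genome arrays and analysed by the authors in Partek Genomics Suite. The submitters' processing notes name MAS5. The version, background correction, normalization and number of arrays are not given in the sources used here. The authors deposited, per probe set, a signed linear fold change of S1 over S2, and this 1 value column was used because it is the series' measurement here. No value lies between -1 and 1, and the table names no genome build.

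Deposited fold changes were converted to signed log2 values. Of the 45101 probe sets, 5797 lack a gene symbol and 1280 give several, of which 0 give a transporter of the 5 families, and both kinds were left out of gene values. Each of the 20679 genes takes the median of its probe sets. Counts past 2-fold stand beside the share over all genes, with no test.

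Named genes were those with a median or any probe set past 2-fold and the highest and lowest of each family. The best known members by role were added (30 in all). From the partner lists they were genes past 2-fold and the heavy chains and escorts. Atf4 was named outside this rule. So were Hif1a, Odc1 and Rraga, past 2-fold only after centring on the poly-A controls. The members, lists, receptor range and poly-A centring were chosen with earlier results of these data known. Older symbols on the array (Gatsl3 for Castor1) were matched through RefSeq's table, and 56 of 56 transporters matched by symbol. Values of some single genes of the families and lists are not reported here. Promoter windows are RefSeq's, GRCm38.p6. Alternatives were the mean or the largest probe set, leaving out suffixes _x_at and _s_at, 2 centrings, other thresholds and counting probe sets. A single gene was called moved beyond the pooled SD between probe sets of a gene (0.49, log2), a list median beyond 0.1. The steps were tested on simulated data. Python 3.11.15, numpy 2.4.6, pandas 2.3.3 and matplotlib 3.10.9 were used.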

Additional observations from a re-analysis of the deposited data

How the results depend on the processing

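No paired analysis was possible because each line has 1 sample. The number of transporter genes at least 2-fold lower, 9, was 11 by the largest probe set (with Slc7a2 and Slc7a11), 10 by the mean (with Slc7a2), 8 without probe sets open to cross-hybridisation (without Slc2a3) and 7 centred on the poly-A controls (without Slc1a5 and Slc2a3). It was 3 at 4-fold and 18 when probe sets were counted. For the largest probe set, the mean, the cross-hybridisation setting and 4-fold, the share over all genes is not given here. Those counts therefore have no background to be read against. The number at least 2-fold higher, 0, was 1 at 1.5-fold and 1, Slc7a3, centred on the poly-A controls. That centring adds a constant and took the log2 median of all 56 genes to 0.30, of SLC1 to 0.16, of SLC7 to 0.30, of SLC38 to 0.45, of SLC2 to 0.13 and of SLC16 to 0.36, the sign turning for each but SLC38. By the largest probe set the SLC1 median was -0.62. Under the other settings run, no median of the 56 genes or of a family moved by more than 0.1. Medians of the partner and marker lists shift by 0.45 on the poly-A controls, and their other settings were not run.

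Of the 30 named transporters, 21 have 2 or more probe sets. By the largest probe set 8 moved by more than 0.49 on the log2 scale, among them to -3.16 for Slc1a3, -2.15 for Slc1a5, -3.28 for Slc7a2, -1.55 for Slc7a11, 0.95 for Slc38a9, -2.40 for Slc2a3 and 0.91 for Slc16a10. Restricting to plain probe sets, chosen after seeing the data, gave -2.40 for Slc1a3 and -0.34 for Slc2a3. Signal over background is unknown, so it cannot be said which values are precise.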

Other observations

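Among Slc genes outside the 5 families, named by size after their values were seen, Slc14a1, a urea transporter, was 14.8-fold higher in the line labelled KALLU+ at a log2 median of 3.89 over its pair of probe sets. Slc4a7, a sodium bicarbonate cotransporter, and Slc12a2, the sodium, potassium and chloride cotransporter, were higher at log2 medians of 1.88 and 1.66 with 3 probe sets each. Lower were the sodium, calcium and potassium exchanger Slc24a3 at -2.94 and the zinc and manganese transporter Slc39a8 at -2.32, the latter from probe sets at -4.02 and -0.63. No test between the lines was possible for these genes.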
